A study of Homo sapiens with 15 samples.

Results

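The study precipitated RNA bound by the chromatin remodeler subunit Brg1 from prostate cancer cells, and this account follows 8 well-studied long noncoding RNAs (lncRNAs) through its libraries: SCHLAP1, MALAT1, NEAT1, KCNQ1OT1, TUG1, PVT1, OIP5-AS1 and DANCR. They were chosen by name, not by their values. The deposited tables hold, for many genes, a row under the gene's own name and a row with the suffix .primary, whose definition is not given in the sources used here; the first is called the plain row below. All rows of the 8 RNAs were taken, 11 distinct rows of 25311 in all: 9 of 22542 rows in 22Rv1 and 11 of 22169 in LNCaP. MALAT1, NEAT1, KCNQ1OT1, TUG1 and OIP5-AS1 have a plain row only, PVT1 has both kinds in both lines, SCHLAP1 has a .primary row in both lines and a plain row in LNCaP only, and DANCR has a plain row in both lines and a .primary row in LNCaP only.

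22Rv1 and LNCaP are established human prostate cancer cell lines, here grown without treatment, lightly fixed with formaldehyde and subjected to RNA immunoprecipitation followed by sequencing (RIP-seq). Each of the 15 libraries is one of 4 kinds: an antibody to Brg1, an antibody to Sfpq (22Rv1 only), nonspecific IgG as the background of the procedure, or input RNA that was not precipitated. In 22Rv1 there were 2 Brg1, 2 Sfpq, 3 IgG and 2 input libraries, and in LNCaP 2 Brg1, 2 IgG and 2 input libraries. Replicates are lettered, but the labels do not say that they came from separate cultures, so p-values measure only the spread between these libraries, which may be technical. No group differs in genotype or in its SCHLAP1 level by design. The series title places the work in the question of whether SWI/SNF stays on chromatin in the presence of SCHLAP1.

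SMARCA4 encodes Brg1, one of the ATPases that drive SWI/SNF, a complex that slides and evicts nucleosomes. SCHLAP1 is an lncRNA expressed in a subset of prostate cancers and known for its proposed link to SWI/SNF. MALAT1 collects at nuclear speckles, sites rich in splicing factors, and NEAT1 is the scaffold of paraspeckles, nuclear bodies that need Sfpq, an RNA-binding protein of the splicing and paraspeckle machinery. KCNQ1OT1 is a long, largely unspliced imprinted transcript that silences neighbouring genes in cis. PVT1 is a spliced lncRNA and miRNA host often amplified in cancers. TUG1 has been described in both nucleus and cytoplasm, OIP5-AS1 is known for binding a microRNA and an RNA-binding protein, and DANCR is a small nucleolar RNA host transcript with described roles in the cytoplasm. The list thus mixes chiefly nuclear RNAs with RNAs also found in the cytoplasm.

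The values below are each library's share of reads, in reads per 1000000 (RPM), counted back from the deposited normalized counts. The libraries of 22Rv1 held 490879 to 47871438 reads and those of LNCaP 22184 to 7506724. The shallowest libraries were the LNCaP IgG libraries, with 22184 and 46297 reads, where 83.1% of rows were at or under 3 reads in both. The share of reads on .primary rows was higher in Brg1 than in input, at 65.7% and 62.7% against 38.2% and 34.8% in 22Rv1 and at 50.8% and 60.5% against 42.3% and 35.2% in LNCaP. In Sfpq it was 27.5% and 33.4%. SMARCA4, whose own RNA encodes the precipitated protein, was higher in Brg1 than in input by 5.55 on the log2 scale in 22Rv1 and by 5.74 in LNCaP. Among IgG libraries it stood at 7212 RPM in LNCaP replicate A against 194 RPM in replicate B. LNCaP IgG replicate A thus carries a SMARCA4 share far above that of the other IgG libraries. The part of this in the IgG results was not tested. Of 7 prostate luminal marker genes, 4 had a row in 22Rv1, with summed input levels of 65.6 to 71.5 RPM, and 7 had rows in LNCaP, with 3688 to 3739 RPM. Among 3 blood, 3 fibroblast and 3 endothelial marker genes, 1 blood gene (3.99 to 4.95 RPM in input) and 1 fibroblast gene (17.6 to 19.95 RPM) had a row in 22Rv1, and 1 fibroblast gene (19.2 to 19.9 RPM) and 1 endothelial gene (32.3 to 33.7 RPM) in LNCaP.

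In the RefSeq annotation of GRCh38.p14 the RNAs differ widely in span, and the submitters' processing notes name the build hg38. SCHLAP1 lies at chr2:180692104-180916939, a span of 224836 bases, and PVT1 spans 306733 bases of chromosome 8 with 51 annotated transcripts. KCNQ1OT1 lies at chr11:2608328-2699994 (91667 bases), NEAT1 at chr11:65422798-65445540 (22743 bases) and MALAT1 at chr11:65497738-65506516 (8779 bases). OIP5-AS1 lies at chr15:41282697-41313338 (30642 bases), TUG1 at chr22:30969265-30979395 (10131 bases) and DANCR at chr4:52712394-52720697 (8304 bases). All 91667 bases of KCNQ1OT1 lie within KCNQ1, OIP5-AS1 shares 4066 bases with OIP5, and MALAT1 shares 7205 bases with its antisense partner TALAM1. OIP5 has rows of its own, while KCNQ1 and TALAM1 have none in either table. The library kit keeps strand, but no source used here says whether counting used it, so reads on the shared bases may come from either partner if it did not; this bears on all of KCNQ1OT1, on most of MALAT1 and on the shared end of OIP5-AS1.

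The first comparison asked which of these RNAs Brg1 precipitates held in a higher or lower share than input. In 22Rv1, 5 of 9 rows rose (SCHLAP1.primary, MALAT1, NEAT1, KCNQ1OT1 and PVT1.primary) and 3 fell (TUG1, OIP5-AS1 and DANCR). Over all 22540 rows tested, 27.8% were called higher and 40.8% lower, so the count that fell is near the background and the count that rose is above it. In LNCaP, 4 of 11 rows rose (SCHLAP1.primary, NEAT1, KCNQ1OT1 and PVT1.primary) and 4 fell (TUG1, OIP5-AS1 and both DANCR rows), against 13% and 14% of 22169 rows. The median log2 fold change was 1.21 over the 9 rows against -0.26 over all rows in 22Rv1, and 0.07 over the 11 rows against -0.08 in LNCaP.

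**Figure D1:**
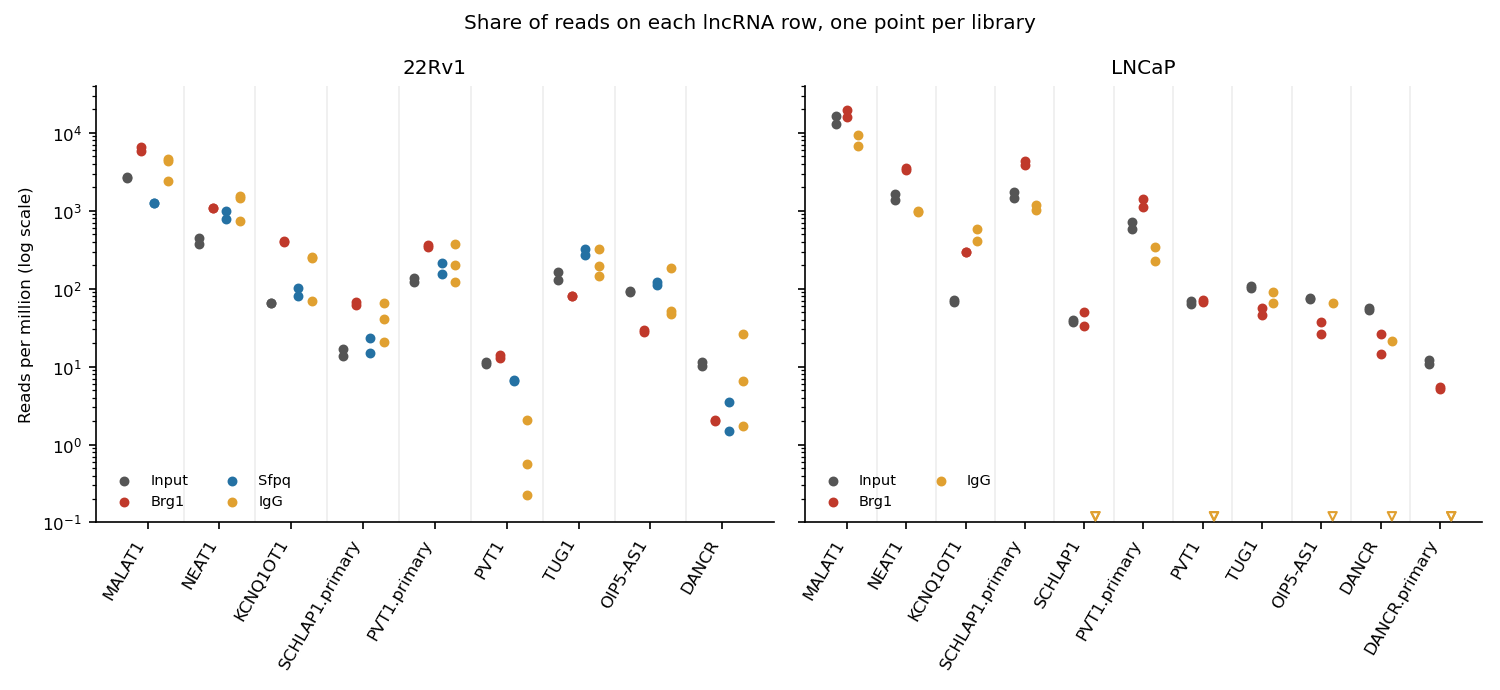
RPM on each lncRNA row (y axis, log scale), one point per library, for input, Brg1, Sfpq and IgG in 22Rv1 (left) and for input, Brg1 and IgG in LNCaP (right); open triangles at the lower edge mark LNCaP IgG libraries with no read. The Brg1 points of SCHLAP1.primary lie at 62.4 and 67.5 RPM in 22Rv1 and at 3917 and 4375 RPM in LNCaP, above every input point of the same line, and those of DANCR lie below every input point in both lines.

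SCHLAP1 was rare in 22Rv1 and among the most abundant RNAs in LNCaP, and in both lines its .primary row was enriched in Brg1. In 22Rv1, SCHLAP1.primary stood at 62.4 and 67.5 RPM in Brg1 (2966 and 3057 reads) and at 16.6 and 13.8 RPM in input (795 and 222 reads). Both Brg1 libraries lay above both input libraries, with a ratio of the mean shares of 4.27. The log2 fold change was 2.03 (SE 0.20, n = 2 against 2, limma adjusted p = 4.24e-07), which placed the row above 98.9% of all rows and above 98.0% of .primary rows. In LNCaP, SCHLAP1.primary stood at 3917 and 4375 RPM in Brg1 against 1736 and 1443 RPM in input. The groups did not overlap, the ratio of mean shares was 2.61 and the log2 fold change 1.39 (limma, SE 0.30, adjusted p = 9.53e-05), above 98.3% of all rows and 97.2% of .primary rows. By share, the row was 10th and 7th of all rows in the LNCaP Brg1 libraries and 22nd and 24th in input, whereas in 22Rv1 it moved from rank 13558 and 14862 in input to 3549 and 3269 in Brg1. The plain SCHLAP1 row, seen in LNCaP only, did not follow. It stood at 33.0 and 49.7 RPM in Brg1 and 39.3 and 37.8 RPM in input, with overlapping groups and a log2 fold change of 0.07 (limma, SE 0.25, adjusted p = 0.869). Every test stayed within a table, so the difference between the lines was not tested.

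These are shares: a row's share also falls when other rows take more reads, and in bulk samples fewer cells of a type and less RNA per cell cannot be told apart. The deposited scaling, which sets libraries against each other differently, left SCHLAP1.primary higher by 1.67 in 22Rv1 (limma adjusted p = 0.00326) but at 0.01 in LNCaP (limma adjusted p = 0.973). Scaling .primary and plain rows separately, an alternative chosen after seeing the data, gave 1.26 in 22Rv1 and 0.86 in LNCaP, both past the threshold.

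KCNQ1OT1 had the largest enrichment in Brg1 among the listed rows in both lines. In 22Rv1 it stood at 414 and 392.3 RPM in Brg1 against 65.1 and 65.8 RPM in input, and in LNCaP at 292 and 296 RPM against 72.6 and 66.6 RPM. Replicates lay close together and Brg1 and input were far apart, with ratios of the mean shares of 6.16 and 4.22. The log2 fold change was 2.604 in 22Rv1 (limma, SE 0.14, adjusted p = 7.09e-09) and 2.06 in LNCaP (limma, SE 0.26, adjusted p = 2.98e-13), above 99.8% and 99.7% of all rows. Under the deposited scaling it was still called higher, by 2.20 in 22Rv1 and by 0.70 in LNCaP.

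NEAT1, the paraspeckle scaffold, was also enriched in both lines. It stood at 1095 and 1088 RPM in 22Rv1 Brg1 against 447 and 379 RPM in input. In LNCaP it stood at 3329 and 3565 RPM against 1628 and 1378 RPM. Every Brg1 library lay above every input library of its line. The log2 fold change was 1.40 in 22Rv1 (limma, SE 0.16, adjusted p = 1.84e-06) and 1.201 in LNCaP (limma, SE 0.30, adjusted p = 0.00077). Under the deposited scaling it was 0.98 in 22Rv1 (limma adjusted p = 0.0638) and -0.17 in LNCaP (limma adjusted p = 0.608).

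MALAT1 was the most abundant of the listed RNAs in every library, and its enrichment passed the test in 22Rv1 only. In that line it stood at 6593 and 5801 RPM in Brg1 and 2614 and 2738 RPM in input, 4th of all rows in both Brg1 libraries and 9th in both input libraries. The log2 fold change was 1.21 (limma, SE 0.18, adjusted p = 2.60e-05). In LNCaP the Brg1 libraries held 15956 and 19624 RPM and the input libraries 16406 and 13137 RPM, so the groups overlapped and the log2 fold change was 0.27 (limma, SE 0.35, adjusted p = 0.605). The 2 lines were not tested against each other. Under the deposited scaling MALAT1 was 0.78 in 22Rv1 (limma adjusted p = 0.104) and called lower in LNCaP, at -1.11 (limma adjusted p = 0.0143), and with plain rows scaled among themselves it was called higher in LNCaP, at 0.74 (limma adjusted p = 0.0177).

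PVT1.primary was called higher in Brg1 in both lines and the plain PVT1 row in neither; the difference between the rows is tested with their ratio further on. PVT1.primary stood at 348 and 364 RPM in 22Rv1 Brg1 against 137 and 123 RPM in input. In LNCaP it stood at 1112 and 1406 RPM against 718 and 586 RPM. Groups did not overlap in either line. The log2 fold change was 1.45 in 22Rv1 (limma, SE 0.15, adjusted p = 1.00e-06) and 0.95 in LNCaP (limma, SE 0.28, adjusted p = 0.0054). The plain PVT1 row, at 13.04 and 14.03 RPM in Brg1 against 11.3 and 10.8 RPM in input in 22Rv1, had a log2 fold change of 0.27 (limma, SE 0.21, adjusted p = 0.265). In LNCaP it stood at 67.4 and 70.7 RPM against 69.9 and 64.6 RPM, with overlapping groups and a log2 fold change of 0.04 (limma, SE 0.25, adjusted p = 0.929). With rows scaled within their own kind, both rows were called higher in both lines, the plain row by 1.08 and 0.51 and PVT1.primary by 0.64 and 0.42. Under the deposited scaling PVT1.primary was 1.03 in 22Rv1 (limma adjusted p = 0.0684) and -0.43 in LNCaP (limma adjusted p = 0.185).

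TUG1, OIP5-AS1 and DANCR fell in Brg1 relative to input in both lines. TUG1 stood at 80.9 and 80.4 RPM in 22Rv1 Brg1 against 130.4 and 163 RPM in input, and at 57.2 and 46.2 RPM against 101 and 109.9 RPM in LNCaP. Its log2 fold change was -0.84 (limma, SE 0.15, adjusted p = 0.000119) and -1.02 (limma, SE 0.25, adjusted p = 0.000779). The 22Rv1 value is close to the median of all plain rows, -0.77, and with plain rows scaled among themselves TUG1 was at -0.02 in 22Rv1 (limma adjusted p = 0.854). OIP5-AS1 fell further, from 89.9 and 92.3 RPM in input to 29.8 and 27.7 RPM in Brg1 in 22Rv1. In LNCaP it fell from 75.3 and 74.5 RPM to 37.4 and 26.1 RPM. Its log2 fold change was -1.63 (limma, SE 0.14, adjusted p = 1.22e-07) and -1.23 (limma, SE 0.25, adjusted p = 3.64e-05). DANCR had the lowest fold change of the listed rows in both lines. It stood at 2.08 and 2.03 RPM in 22Rv1 Brg1 against 11.5 and 10.2 RPM in input, and at 26.4 and 14.7 RPM against 52.6 and 55.8 RPM in LNCaP. The log2 fold change was -1.95 (limma, SE 0.34, adjusted p = 0.000135) and -1.41 (limma, SE 0.26, adjusted p = 1.93e-06). DANCR.primary, at 5.50 and 5.20 RPM against 12.0 and 10.8 RPM in LNCaP, fell as well, by 0.97 on the log2 scale (limma, SE 0.31, adjusted p = 0.0112).

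**Figure D2:**
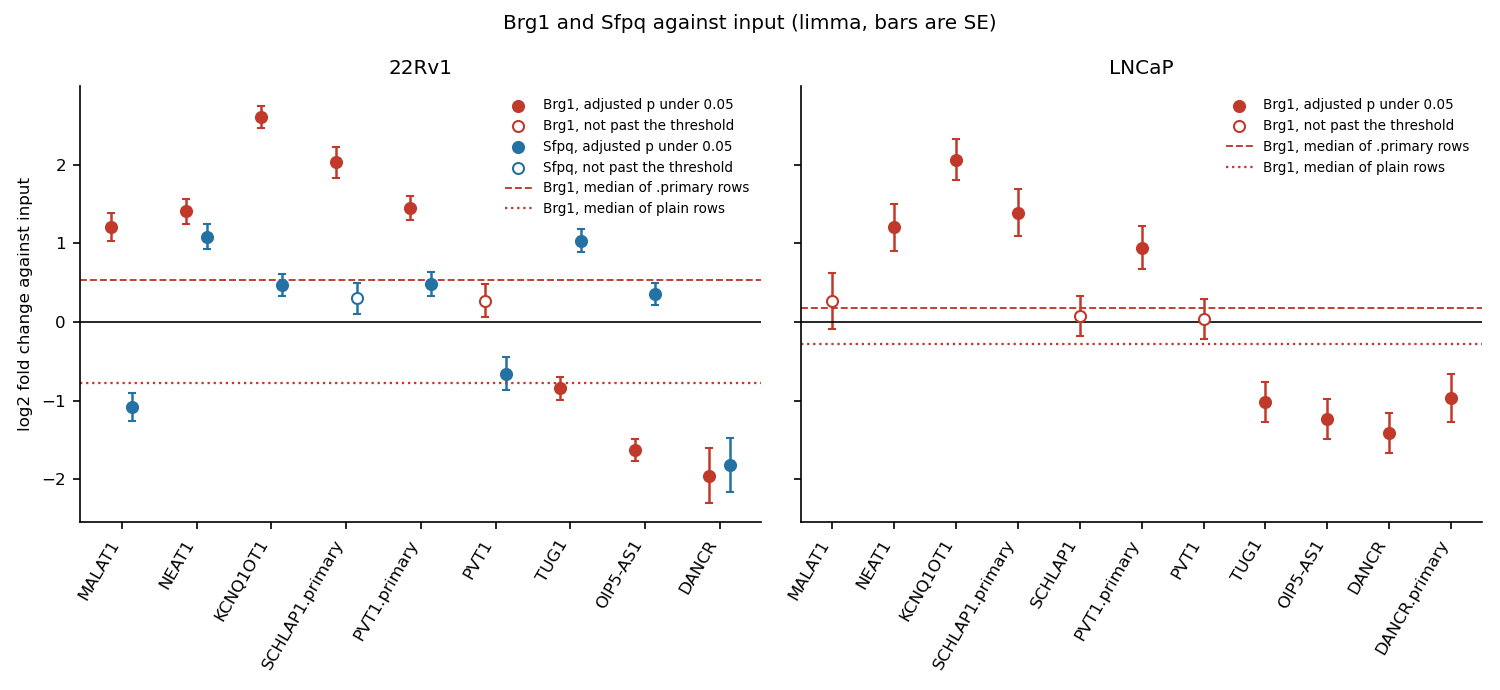
Log2 fold change against input (y axis; bars are standard errors of the limma fit) for Brg1 (red) and Sfpq (blue) in 22Rv1 and for Brg1 in LNCaP; filled points have an adjusted p under 0.05, and the dashed and dotted lines are the Brg1 medians of all .primary rows (0.53 and 0.18) and all plain rows (-0.77 and -0.28). KCNQ1OT1 and SCHLAP1.primary are the highest Brg1 points in both lines, and OIP5-AS1 and DANCR the lowest.

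These calls rest on fits without the IgG libraries, which vary more than the others. With all groups in one fit, no listed row passed the threshold for Brg1 against input in 22Rv1 (lowest limma adjusted p = 0.155) or in LNCaP (lowest limma adjusted p = 0.0613), while over all rows that fit called 9 rows higher and 9 lower for 22Rv1, and 11 higher and 10 lower for LNCaP, with 2125 and 3147 rows at an unadjusted p under 0.05. In LNCaP the input libraries also mattered: without Input replicate A 3 listed rows passed, and without Input replicate B only KCNQ1OT1 (2.003, limma adjusted p = 0.00315) and DANCR (-1.37, limma adjusted p = 0.030) did, with SCHLAP1.primary at 1.52 (limma adjusted p = 0.0938) and 1.25 (limma adjusted p = 0.235). edgeR's quasi-likelihood test without IgG called 8 listed rows in each line.

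To place SCHLAP1 among other abundant lncRNAs, all RefSeq lncRNA rows with a mean of at least 10 RPM in input were ranked by the Brg1 fold change. In 22Rv1 there were 335 such rows, with a median log2 fold change of 0.39, of which 160 were called higher and 87 lower. KCNQ1OT1 was 2nd and SCHLAP1.primary 13th, although SCHLAP1.primary was only 221st of the same rows by input share. PVT1.primary was 57th, NEAT1 60th and MALAT1 87th, while OIP5-AS1 at 322nd and DANCR at 326th were near the bottom. In LNCaP there were 366 rows, with a median of 0.15, of which 121 were called higher and 75 lower. There KCNQ1OT1 was 3rd, SCHLAP1.primary 22nd, NEAT1 37th and PVT1.primary 74th. By input share SCHLAP1.primary was 2nd of the 366, behind MALAT1 and ahead of NEAT1 and PVT1.primary. MALAT1 was 169th by fold change, close to plain SCHLAP1 at 195th and plain PVT1 at 200th. DANCR.primary was 324th, OIP5-AS1 343rd and DANCR 354th. RefSeq types TUG1 as protein-coding, so it was not ranked. SCHLAP1.primary was thus high in the ranking in both lines, but 12 other lncRNA rows in 22Rv1 and 21 in LNCaP had a larger fold change. By IgG against input, the same 335 rows of 22Rv1 had NEAT1 13th, KCNQ1OT1 21st, SCHLAP1.primary 23rd, PVT1.primary 60th and MALAT1 82nd. By Brg1 against IgG, KCNQ1OT1 was 150th, SCHLAP1.primary 210th, PVT1.primary 212th, MALAT1 215th and NEAT1 282nd. The 335 rows were not filtered by IgG reads. Plain PVT1, with 1 read in each IgG library, was 28th by Brg1 against IgG and 300th by IgG against input. In 22Rv1 these high ranks against input were shared by IgG, in rankings that include such rows.

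**Figure D3:**
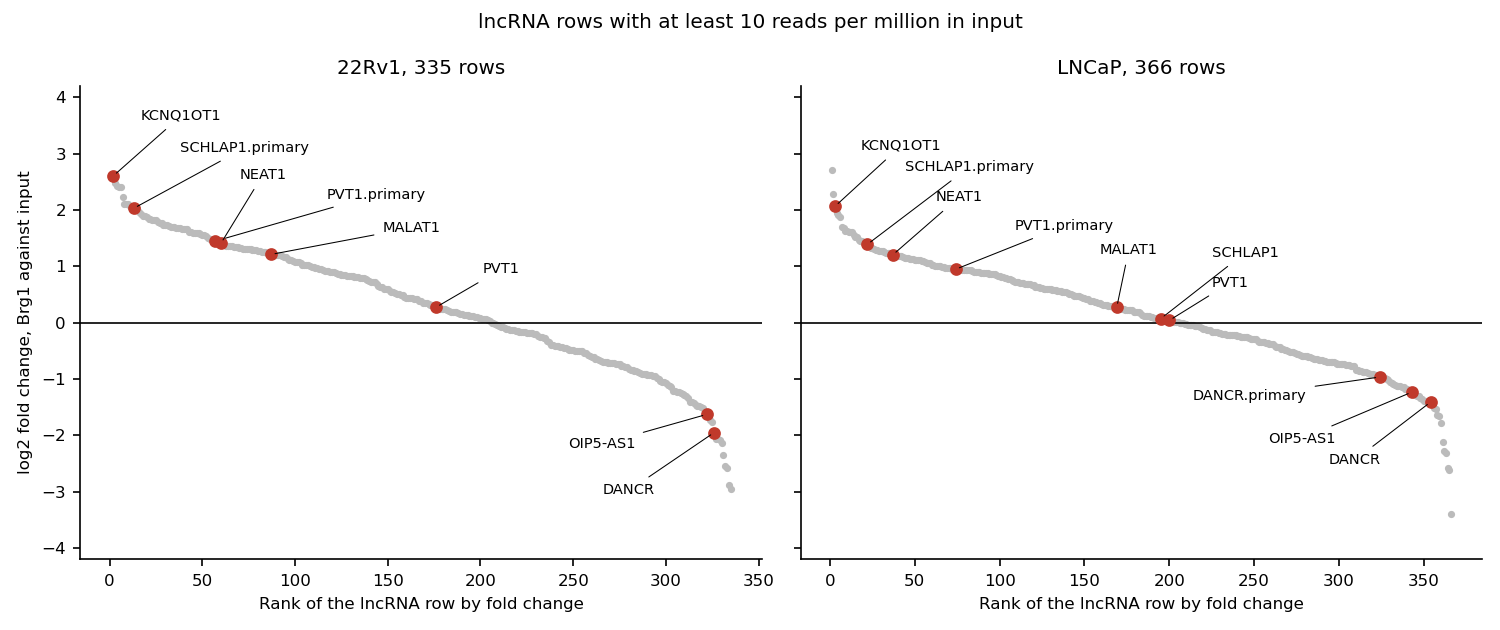
LncRNA rows with at least 10 RPM in input, ordered by log2 fold change of Brg1 against input (x axis, rank; y axis, log2 fold change) in 22Rv1 (335 rows) and LNCaP (366 rows), with the listed RNAs in red. KCNQ1OT1 is 2nd and 3rd and SCHLAP1.primary 13th and 22nd, and OIP5-AS1 and DANCR lie among the lowest rows in both lines.

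The Brg1 fold change of .primary rows rose with the span of the gene, and SCHLAP1 and PVT1 are among the longest genes. Across 10486 .primary rows with a RefSeq span in 22Rv1, Spearman's rho between span and fold change was 0.51, and across 10214 in LNCaP it was 0.435; these are across genes of the same libraries, which are not independent replicates. Split into 10 equal groups by span, the median log2 fold change was -0.09 in the shortest group and 1.33 in the longest in 22Rv1, with -0.26 and 0.74 as the LNCaP values. Within the longest group of 1049 rows in 22Rv1, whose quartiles were 1.02 and 1.65, SCHLAP1.primary lay above 95.3% of the rows and PVT1.primary above 58.3%. Within the longest group of 1022 rows in LNCaP, SCHLAP1.primary lay above 96.3% and PVT1.primary above 72.4%. So PVT1.primary had a value common for genes of its length, and SCHLAP1.primary one near the upper end. DANCR.primary, in the shortest group, lay above 8.42% of its rows. For Sfpq the relation with span was weak, with a rho of 0.0659 and medians below 0 in all 10 groups, the lowest -0.74 and that of the longest -0.26. There SCHLAP1.primary lay above 90.0% and PVT1.primary above 93.3% of the longest group.

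**Figure D4:**
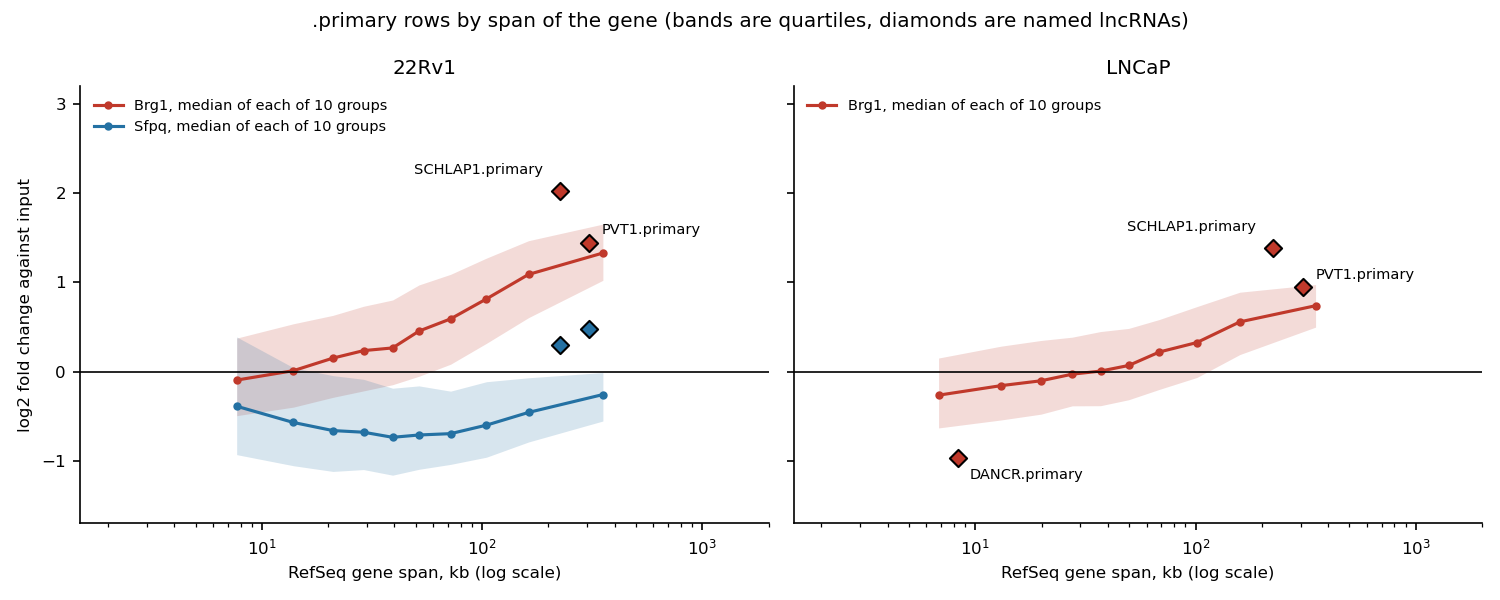
Median log2 fold change against input (y axis) of .primary rows in 10 equal groups by RefSeq gene span (x axis, kb, log scale), with bands from the lower to the upper quartile, for Brg1 (red) and Sfpq (blue); diamonds are listed RNAs. The Brg1 medians climb from -0.09 to 1.33 (22Rv1) or -0.26 to 0.74 (LNCaP), and SCHLAP1.primary lies above the band of the longest genes in both.

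Sfpq was compared with the same input libraries, in 22Rv1 only, to show which of these RNAs its precipitates held in a higher or lower share. Of the 9 rows, 5 rose (NEAT1, TUG1, PVT1.primary, KCNQ1OT1 and OIP5-AS1) and 3 fell (DANCR, MALAT1 and plain PVT1), against 24.6% of all rows called higher and 36.1% lower. NEAT1 stood at 774 and 981 RPM, above both input libraries, with a log2 fold change of 1.08 (limma, SE 0.16, adjusted p = 3.50e-05). TUG1, which fell in Brg1, stood at 327 and 273 RPM in Sfpq, above both input libraries, with a log2 fold change of 1.03 (limma, SE 0.15, adjusted p = 2.66e-05). MALAT1, the speckle RNA, went the other way from Brg1 too, at 1275 and 1246 RPM and a log2 fold change of -1.08 (limma, SE 0.18, adjusted p = 9.58e-05). In Sfpq against IgG, NEAT1 was at -0.45 (limma adjusted p = 0.442) and TUG1 at 0.51 (limma adjusted p = 0.400). Neither was called there, and the Sfpq and IgG libraries overlapped for both. SCHLAP1.primary was not called, at 15.1 and 23.5 RPM (108 and 173 reads) with groups that overlap input and a log2 fold change of 0.30 (limma, SE 0.20, adjusted p = 0.198). With rows scaled within their own kind SCHLAP1.primary was called higher in Sfpq, at 0.57 (limma adjusted p = 0.00708).

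The remaining Sfpq differences were smaller, apart from DANCR. KCNQ1OT1 stood at 80.4 and 103 RPM, higher by 0.47 on the log2 scale (limma, SE 0.14, adjusted p = 0.00989). PVT1.primary stood at 155 and 212 RPM, higher by 0.48 (limma, SE 0.15, adjusted p = 0.0136), while plain PVT1, at 6.72 and 6.53 RPM, fell by 0.66 (limma, SE 0.21, adjusted p = 0.0138). Both PVT1 calls were lost under some settings: that of the plain row with edgeR (adjusted p = 0.0556), DESeq2 (adjusted p = 0.121) or without either input library, and that of PVT1.primary without Input replicate B (limma adjusted p = 0.125) or Sfpq replicate B (limma adjusted p = 0.134). OIP5-AS1, at 122 and 112 RPM, was higher by 0.35 (limma, SE 0.14, adjusted p = 0.0357). The median of all plain rows was 0.22, and KCNQ1OT1 and OIP5-AS1 lay above 62.7% and 56.5% of plain rows. With rows scaled within their own kind neither was called, at 0.34 and 0.22 (limma adjusted p = 0.0532 and 0.0951). DANCR, at 3.50 and 1.496 RPM (25 and 11 reads), fell by 1.82 (limma, SE 0.34, adjusted p = 0.000314). Under the deposited scaling 3 listed rows were called, all lower (MALAT1, DANCR and plain PVT1), with NEAT1 at 0.56 (limma adjusted p = 0.329), TUG1 at 0.52 (limma adjusted p = 0.412), and KCNQ1OT1, PVT1.primary and OIP5-AS1 turned to -0.044, -0.041 and -0.17. With IgG in the fit no listed row passed (lowest limma adjusted p = 0.525), and over all rows 0 were called higher and 7 lower, with 1478 at an unadjusted p under 0.05. Leaving out Input replicate A or B left 5 or 4 listed rows called, and SCHLAP1.primary was at 0.60 (limma adjusted p = 0.0123) without Sfpq replicate A and -0.0035 (limma adjusted p = 0.988) without Sfpq replicate B, and was called by edgeR at 0.49 (adjusted p = 0.0471).

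A direct comparison of the precipitates set Brg1 against Sfpq in 22Rv1. Of the 9 rows, 5 were higher in Brg1 (MALAT1, KCNQ1OT1, SCHLAP1.primary, PVT1.primary and plain PVT1) and 2 lower (OIP5-AS1 and TUG1), against 40.1% of all rows called higher and 38.2% lower. MALAT1 had the largest difference, 2.29 on the log2 scale (limma, SE 0.18, adjusted p = 1.36e-08), followed by KCNQ1OT1 at 2.13 (limma, SE 0.14, adjusted p = 3.35e-09) and SCHLAP1.primary at 1.73 (limma, SE 0.20, adjusted p = 7.65e-07). PVT1.primary and plain PVT1 differed by 0.97 and 0.93. The median was 1.09 over all .primary rows and -0.93 over all plain rows. SCHLAP1.primary lay above 79.9% of .primary rows and PVT1.primary above 44.7%. OIP5-AS1 was lower in Brg1 by -1.98 (limma, SE 0.14, adjusted p = 4.27e-09) and TUG1 by -1.88 (limma, SE 0.15, adjusted p = 1.39e-08). For NEAT1 the Brg1 libraries lay above the Sfpq libraries but the difference of 0.32 did not pass (limma, SE 0.16, adjusted p = 0.0725), and for DANCR the groups overlapped. Among the 335 lncRNA rows, whose median was 0.77, MALAT1 was 14th, KCNQ1OT1 25th, SCHLAP1.primary 65th and NEAT1 218th. With IgG in the fit 2 rows remained called, MALAT1 (limma adjusted p = 0.0283) and TUG1 (limma adjusted p = 0.0494). With rows scaled within their own kind PVT1.primary was at -0.11 and NEAT1 was called at 1.28. SCHLAP1.primary was then still called but smaller, at 0.69 (limma adjusted p = 0.00219).

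The IgG libraries show the share each RNA takes when no specific antibody is used, and in 22Rv1 the IgG shares of SCHLAP1.primary, NEAT1 and PVT1.primary overlapped those in Brg1. SCHLAP1.primary stood at 40.5, 20.6 and 65.2 RPM in IgG (179, 36 and 32 reads), above both input libraries and overlapping the Brg1 libraries. Its Brg1 against IgG log2 fold change was 0.76 (limma, SE 0.60, adjusted p = 0.520). That is below the medians in this fit of 0.86 over all rows and 1.14 over .primary rows. It is above only 46.8% of all rows. Only 42.3% of rows had over 3 reads in every IgG library. Over those 9542 rows, a set chosen after seeing the data by its IgG reads, the median was 0.15. The median of the .primary rows among them was 0.55, and SCHLAP1.primary lay above both medians. NEAT1 stood at 1478, 1537 and 739 RPM, called higher than input by 1.53 (limma, SE 0.35, adjusted p = 0.0270) and overlapping Brg1, from which it differed by -0.12 (limma adjusted p = 0.863). MALAT1, at 4616, 4419.5 and 2449 RPM, lay below both Brg1 libraries, by 0.75 (limma, SE 0.32, adjusted p = 0.244). This difference was also under the median of all rows, but above the median of 0.15 over the 9542 rows. KCNQ1OT1, at 251, 254 and 69.3 RPM, lay above both input and below both Brg1 libraries, with a Brg1 against IgG difference of 1.29 (limma, SE 0.54, adjusted p = 0.228). PVT1.primary stood at 203, 375 and 122 RPM and overlapped both input and Brg1. These are shares within each library: the deposited scaling puts nearly all rows higher in Brg1 than in IgG, with a median over all rows of 7.32 in 22Rv1, and under it NEAT1 was 7.16, TUG1 5.87 and OIP5-AS1 5.75 higher in Brg1.

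The RNAs that fell in Brg1 relative to input were also below IgG or overlapped it. TUG1 stood at 145, 193 and 326 RPM in 22Rv1 IgG, above both Brg1 libraries, with a Brg1 against IgG difference of -1.36 (limma, SE 0.36, adjusted p = 0.0529). OIP5-AS1, at 51.8, 47.4 and 185 RPM, lay above both Brg1 libraries, with a difference of -1.39 (limma adjusted p = 0.218). DANCR, at 6.56, 1.71 and 26.5 RPM (29, 3 and 13 reads), overlapped Brg1. Plain PVT1 was the exception in the other direction, with 1 read in each IgG library against 620 and 635 reads in Brg1. It is the single row of the 9 called for Brg1 against IgG, where 8.65% of all rows were called higher and 0.954% lower, and at 1 read its fold change is not read. For IgG against input, 1 of the 9 rows was called higher (NEAT1) and 1 lower (plain PVT1), against 0.382% and 8.74% of all rows. For Sfpq against IgG, none was called higher and 1 lower (MALAT1, -1.55, limma, SE 0.32, adjusted p = 0.0191), against 9.13% and 1.72%.

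The 22Rv1 calls against IgG depended on which IgG libraries were in the fit. Over all rows, Brg1 against IgG called 1949 rows higher and 215 lower with all 3 IgG libraries, 5004 and 1481 without replicate A, 3384 and 1218 without replicate B, and 5347 and 893 without replicate C, which had the fewest reads. Of the 9 listed rows, 2 were called without replicate A and 2 without replicate B. Among those with over 3 reads in every IgG library, TUG1 was called without replicate A (-1.63, limma adjusted p = 0.00863) and PVT1.primary without replicate B (1.17, limma adjusted p = 0.0406). Without replicate C 5 were called, among them MALAT1 at 0.45 (limma adjusted p = 0.00525), KCNQ1OT1 at 0.67 (limma adjusted p = 0.0296) and TUG1 at -1.05 (limma adjusted p = 0.014). SCHLAP1.primary was still not called, at 1.14 (limma adjusted p = 0.124), and NEAT1 was at -0.47 (limma adjusted p = 0.0525). KCNQ1OT1 was then called higher in IgG than in input, by 1.93 (limma adjusted p = 0.00113), and PVT1.primary by 1.08 (limma adjusted p = 0.0432).

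In LNCaP the IgG libraries held few reads, and only 5 of the 11 listed rows had over 3 reads in both. SCHLAP1.primary stood at 1037 and 1188 RPM in IgG (23 and 55 reads), below both input and both Brg1 libraries. The Brg1 against IgG difference was 1.90 (limma, SE 0.13, adjusted p = 0.000346). It is below the median of 2.43 over all rows and above only 40.8% of them. Of all rows, 83.1% had at most 3 reads in both IgG libraries. Over the 633 rows with over 3 reads in both, a set chosen by its IgG reads, the median was -0.56. The median of the .primary rows among them was -1.03, and SCHLAP1.primary lay above both medians. NEAT1 stood at 992 and 972 RPM (22 and 45 reads), 1.81 below Brg1 (limma, SE 0.09, adjusted p = 0.000247). That SE does not cover counting error: the 95% counting intervals of the IgG shares were 655 to 1501 RPM and 727 to 1300 RPM. Fitted only on rows with over 3 reads in both IgG libraries, the SE was 0.35 for NEAT1 and 0.36 for SCHLAP1.primary. PVT1.primary, at 225 and 346 RPM (5 and 16 reads), lay 2.16 below Brg1 (limma, SE 0.27, adjusted p = 0.00289). MALAT1, at 6762 and 9266 RPM, lay 1.16 below Brg1 (limma, SE 0.22, adjusted p = 0.0125). KCNQ1OT1 was the reverse of these, at 586 and 410.4 RPM in IgG (13 and 19 reads), above both Brg1 libraries by 0.74 on the log2 scale, a difference of -0.74 for Brg1 against IgG (limma, SE 0.27, adjusted p = 0.103). The sign of that difference turned to 0.20 with edgeR, to 0.21 with TMM in limma and to 8.69 under the deposited scaling, whose median over all LNCaP rows was 7.40. KCNQ1OT1 was called higher in IgG than in input, by 2.80 (limma, SE 0.27, adjusted p = 0.00105), and was -7.99 under the deposited scaling. Without IgG replicate A, the library with the high SMARCA4 share, SCHLAP1.primary was 1.80 higher in Brg1 than in IgG and KCNQ1OT1 was -0.48 (limma adjusted p = 3.37e-07 and 0.147), with the lone IgG library assumed to vary like the other groups.

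Counted over the 11 LNCaP rows, 7 were called higher in Brg1 than in IgG and none lower, against 44.1% and 2.72% of all rows, and in IgG against input 1 was called higher and 7 lower, against 3.14% and 44%. Those counts include rows with at most 3 reads in an IgG library, for which no fold change is given, and a count of 0 there allows up to 135 RPM in replicate A and 64.8 RPM in replicate B, above or near the Brg1 shares of those rows. The 633 rows with over 3 reads in both IgG libraries are a set chosen after seeing the data, by IgG reads. Over them 52 rows were called higher in Brg1 than in IgG and 224 lower, with a median of -0.56. There SCHLAP1.primary (limma adjusted p = 0.00278), NEAT1 (limma adjusted p = 0.00307) and PVT1.primary (limma adjusted p = 0.00155) were still called higher in Brg1 than in IgG. MALAT1 was not (limma adjusted p = 0.0981).

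Where a gene has both rows, the ratio of .primary to plain reads was tested across all such genes. In 22Rv1 the .primary row held 96.4% and 96.3% of the PVT1 reads in Brg1 and 95.8% and 97.0% in Sfpq, against 92.4% and 92.0% in input. Both precipitates lay above input. The log2 ratio rose by 1.17 in Brg1 (limma, SE 0.28, adjusted p = 0.000901), in 1 of 1 listed genes, where 66.9% of all genes rose and 0.764% fell. It rose by 1.14 in Sfpq (limma, SE 0.28, adjusted p = 0.00132), where 9.79% of all genes rose and 57.1% fell. For PVT1 the shift in Brg1 was therefore one shared by most genes, and the shift in Sfpq went against the direction called for most genes.

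In LNCaP, 1 of 3 listed genes shifted in Brg1, against 13.6% of all genes up and 0.851% down. SCHLAP1.primary held 99.2% and 98.9% of the SCHLAP1 reads in Brg1 and 97.8% and 97.4% in input, a rise of the log2 ratio of 1.32 (limma, SE 0.38, adjusted p = 0.00636). PVT1.primary held 94.3% and 95.2% against 91.1% and 90.1%, without overlap, but its rise of 0.91 did not pass (limma, SE 0.41, adjusted p = 0.116). DANCR was mostly on its plain row, with 17.2% and 26.1% of reads on DANCR.primary in Brg1 and 18.6% and 16.2% in input, and its groups overlapped. The SCHLAP1 call was lost when either input library was left out (limma adjusted p = 0.214 and 0.668), and no listed gene was called with IgG in the fit. In 22Rv1, with no plain SCHLAP1 row, the split of SCHLAP1 could not be compared.

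**Figure D5:**
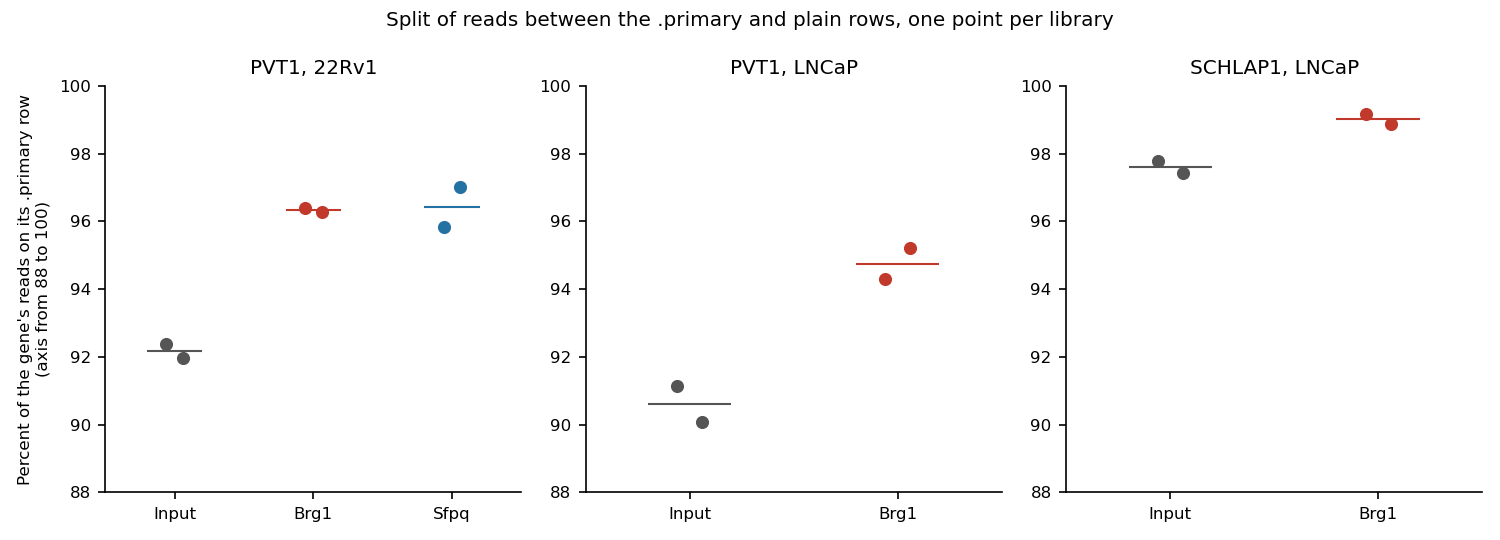
Percent of a gene's reads that fall on its .primary row (y axis, from 88 to 100), one point per library and a line at each group's mean, for PVT1 in both lines and SCHLAP1 in LNCaP. Every Brg1 point lies above every input point of its panel, and so do both Sfpq points for PVT1.

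To compare levels between RNAs, shares were divided by the gene's RefSeq span, giving RPM per kb of span, a scale on which unspliced and spliced reads are not separated. In 22Rv1 input the order was MALAT1 (304.8 ± 10.0, SD, n = 2), NEAT1 (18.2 ± 2.10), KCNQ1OT1 (0.714 ± 0.00518), PVT1.primary (0.425 ± 0.0320) and SCHLAP1.primary (0.0677 ± 0.00869). In 22Rv1 Brg1 the same order held, at 706 ± 63.8, 48.0 ± 0.218, 4.40 ± 0.166, 1.16 ± 0.0371 and 0.289 ± 0.0162. In LNCaP input the order was MALAT1 (1683 ± 263), NEAT1 (66.1 ± 7.77), SCHLAP1.primary (7.07 ± 0.922), PVT1.primary (2.13 ± 0.304) and KCNQ1OT1 (0.759 ± 0.0461). In LNCaP Brg1 they stood at 2026 ± 295, 152 ± 7.36, 18.4 ± 1.44, 4.10 ± 0.679 and 3.21 ± 0.0285. Neighbours in these orders were separated by more than their SDs, PVT1.primary and KCNQ1OT1 in LNCaP Brg1 least clearly. SCHLAP1.primary thus went from last of these 5 in 22Rv1 to 3rd in LNCaP.

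Other groups of RNAs give the setting for these values. Of 12 names of lncRNAs better known from the cytoplasm (NORAD, GAS5, ZFAS1 and small nucleolar RNA hosts among them), 9 had rows, 14 in each line. LINC00657 and LINC00152, also among the 12, are older names of NORAD and CYTOR. In Brg1 against input none of the 14 was called higher and 12 lower in 22Rv1 (median -1.24), beside 40.8% of all rows called lower, and none higher and 9 lower in LNCaP (median -1.05), beside 14% of all rows. SNHG16 had the largest fall in both lines, at -2.35 (limma, SE 0.15, adjusted p = 2.34e-08) and -1.65, and NORAD, which sequesters Pumilio proteins, stood at 72.5 RPM against 310.3 RPM in input in 22Rv1 (-2.07) and at 82.4 against 235 RPM in LNCaP (-1.52). In Sfpq against input 1 row was called higher and 12 lower (median -1.26; all rows 24.6% and 36.1%), and the one that rose was NORAD, at 886 RPM (1.52), as TUG1 rose there. ZFAS1 had the largest Sfpq fall, -2.55. In Brg1 against Sfpq 6 of the 14 were higher and 3 lower (median 0.34; all rows 40.1% and 38.2%).

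Of 16 further chromatin-linked or nuclear lncRNAs, 11 had 15 rows in 22Rv1 and 8 had 10 rows in LNCaP. Their Brg1 calls were close to the shares over all rows, with 5 higher and 5 lower in 22Rv1 (median -0.33; all rows 27.8% and 40.8%) and 2 higher and 1 lower in LNCaP (median 0.06; all rows 13% and 14%). LINC00511.primary rose in both lines, by 1.74 in 22Rv1 (limma adjusted p = 2.46e-07) and 1.06 in LNCaP, as did FIRRE.primary, the row of a repeat-rich lncRNA that shapes nuclear architecture, by 1.36 and 0.87. GNAS-AS1.primary, from another imprinted antisense locus, rose by 1.72 in 22Rv1. CRNDE fell by 0.85 in 22Rv1 and JPX.primary by 0.66 in LNCaP. In Sfpq against input 2 of the 15 rose and 6 fell (median -0.39; all rows 24.6% and 36.1%), and in Brg1 against Sfpq 8 were higher and 2 lower (median 0.62; all rows 40.1% and 38.2%), with FTX highest at 1.83.

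Of 14 prostate cancer lncRNAs, 1 had a row in 22Rv1 and 7 had 8 rows in LNCaP. In LNCaP 3 of the 8 rose in Brg1 against input and none fell (median 0.48), beside 13% and 14% of all rows. They were PCA3, a prostate-specific lncRNA used as a urine marker, at 33.0 against 10.1 RPM (1.63, limma, SE 0.26, adjusted p = 4.97e-08), PCGEM1.primary (1.202, limma adjusted p = 0.00326) and CTBP1-AS.primary (1.01, limma adjusted p = 0.000982). SCHLAP1.primary, at 1.39, lay between PCA3 and PCGEM1.primary. The single 22Rv1 row was not called in Brg1 against input (0.52), Sfpq against input (-0.12) or Brg1 against Sfpq (0.64).

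The RNAs of 8 paraspeckle protein genes, with 16 rows in each line, were called in Brg1 against input at shares near or below those of all rows. There 1 rose and 7 fell in 22Rv1 (median -0.27), beside 27.8% and 40.8% of all rows, and 1 rose and 3 fell in LNCaP (median -0.08), beside 13% and 14%, while in Sfpq against input 7 rose and 6 fell (median 0.21; all rows 24.6% and 36.1%), and in Brg1 against Sfpq 4 were higher and 10 lower (median -0.59; all rows 40.1% and 38.2%). The RNA of SFPQ itself split by row in Sfpq, with the plain row higher by 0.79 (limma adjusted p = 0.000197) and SFPQ.primary lower, at -1.22 (limma adjusted p = 9.62e-06), the opposite of PVT1. This is the common direction in Sfpq, where the ratio of .primary to plain reads fell in 57.1% of all genes. The medians there were 0.22 over plain rows and -0.52 over .primary rows. DAZAP1.primary rose most in Sfpq, by 1.40, and NONO.primary fell in Brg1 in both lines (-0.83 and -1.22) and in Sfpq (-1.08).

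Over the 9 libraries of 22Rv1, the rows whose log2(RPM + 1) values were most like those of SCHLAP1.primary, among 17404 rows with a mean of at least 10 RPM, were DCUN1D4.primary (Pearson's r 0.952), AC091948.1.primary (0.931) and RNF144A.primary (0.927). Those most like NEAT1 were DIP2C.primary (0.983), MAD1L1.primary (0.965) and RXRA.primary (0.948). All 6 are .primary rows. The points share libraries and depths, and the correlations are a description of these libraries; over the 6 LNCaP libraries the same pairs ran from -0.06 to 0.88.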

How the data were processed

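The deposited tables, 1 for each cell line, hold the authors' normalized counts per row, used here as a signal with no stated scaling. The submitters' processing notes name STAR 2.6, Salmon 0.8.2, deepTools 2.5.2, DESeq2 and hg38, without their roles. Each deposited signal column was divided by its smallest positive value. The quotients were whole within 0.001 read, were taken as reads and were expressed as reads per 1000000 (RPM) of the library, so they undo the authors' scaling. The tables were scaled separately by the authors and hold different rows, and every test stays within a table. Intervals and floors from counts cover counting error only, since no molecular identifiers are given.

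Differences were tested with limma 3.58.1 (R 4.3.3; trended variances) on log2(RPM + 1) over all rows with a mean of at least 1 RPM, with Benjamini-Hochberg adjustment over all rows tested and a threshold of 0.05. Fold changes are on this log2 scale and understate those of low rows. Comparisons among Brg1, Sfpq and input were fitted without IgG; those with IgG were fitted on all groups. A second fit took the log2 ratio of .primary to plain reads. edgeR 4.0.16 and DESeq2 1.42.0 on the recovered reads, other scalings, filters, pseudocounts and fits, and leaving out each library were the alternatives. The test was checked on simulated data. Tables were handled with pandas 2.3.3, numpy 2.4.6 and scipy 1.17.1. A floor of 3 reads was used for a count of 0, and no fold change against IgG is given for a row with at most 3 reads in any IgG library. RefSeq types and spans matched 21032 of 22542 rows and 20498 of 22169 by symbol. Means of 2 or 3 libraries are given ± SD. The RNAs, companion lists, tests and alternatives were chosen with earlier results of these data known. Named were all rows of the 8 RNAs, SMARCA4, up to 3 called rows in each direction per companion list and comparison by size of the fold change, and the 3 rows most like SCHLAP1.primary and NEAT1.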

Additional observations from a re-analysis of the deposited data

Results flagged for a closer look

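For 3 rows every library of one line moved one way and every library of the other line the opposite way. NEAT1 was higher in IgG than in input in 22Rv1, by 1.53 on the log2 scale, and lower in LNCaP, at -0.61. SCHLAP1.primary did the same, at 1.27 in 22Rv1 and -0.51 in LNCaP. KCNQ1OT1 was higher in Brg1 than in IgG in 22Rv1, by 1.29, and lower in LNCaP, at -0.74. None of these differences between the lines was tested, since every test stayed within a table, and the LNCaP IgG libraries held 22184 and 46297 reads. Groups of 2 or 3 libraries are too small for a check of single outlying libraries.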

How the results depend on the processing

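Over the listed rows, 1397 fold changes were recomputed under the alternatives: 1165 kept their direction and their side of the threshold, 133 lost the call, 56 gained one and 43 changed direction. Some alternatives could not change a fold change, only its p: no filter, no trended variances, or leaving out a library of a group not compared. The direction of KCNQ1OT1, SCHLAP1.primary, TUG1, OIP5-AS1 and DANCR in Brg1 against input did not change in either line under any alternative. Depth limits the LNCaP IgG comparisons most, where 633 of 22169 rows (2.86%) had over 3 reads in both libraries. The number of libraries, 2 for each group but 22Rv1 IgG, limits every p. Causes of the changes below were not tested.

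With all groups in one fit, 0 listed rows were called in Brg1 against input in either line and in Sfpq against input, 2 in Brg1 against Sfpq, and 0 listed genes shifted their .primary to plain ratio in any of the 3 ratio comparisons. The deposited scaling called 5 listed rows for Brg1 against input and 3 for Sfpq against input in 22Rv1, and all 9, 9 and 9 in the comparisons with IgG there and 11 for Brg1 against IgG in LNCaP. Of 22540 rows it called 1356 higher and 6664 lower for Brg1 against input, and 461 and 6881 for Sfpq against input. Nearly every row was called with IgG, such as 22487 of 22542 higher in 22Rv1 Brg1 than in IgG, and 22088 of 22169 in LNCaP. Under the deposited scaling these fold changes changed direction. In Brg1 against input in LNCaP, MALAT1 was -1.11, NEAT1 -0.17, PVT1 -1.34, PVT1.primary -0.43 and SCHLAP1 -1.30, and in 22Rv1 PVT1 was -0.13. In Sfpq against input KCNQ1OT1 was -0.044, OIP5-AS1 -0.17, PVT1.primary -0.041 and SCHLAP1.primary -0.20. In IgG against input in 22Rv1 KCNQ1OT1 was -6.34, MALAT1 -7.25, NEAT1 -6.17, PVT1.primary -6.98, SCHLAP1.primary -6.18 and TUG1 -7.15, and in LNCaP KCNQ1OT1 was -7.99. In Sfpq against IgG KCNQ1OT1 was 6.29, MALAT1 5.64, NEAT1 6.73, PVT1.primary 6.94 and SCHLAP1.primary 5.98. In Brg1 against IgG NEAT1 was 7.16, OIP5-AS1 5.75 and TUG1 5.87 in 22Rv1 and KCNQ1OT1 8.69 in LNCaP. The deposited scaling moves the median of all rows in Brg1 against IgG to 7.32 in 22Rv1 and 7.40 in LNCaP. Scaling rows within their own kind, added after seeing the data, turned DANCR to 0.64 and PVT1.primary to -0.11 in Brg1 against Sfpq.

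Other tools and settings changed calls mainly in the comparisons with IgG. KCNQ1OT1 in LNCaP Brg1 against IgG was 0.21 with TMM in limma and 0.20 with edgeR, and OIP5-AS1 in 22Rv1 IgG against input was 0.26 with DESeq2, 0.11 with TMM in limma and 0.25 with edgeR. DESeq2 called 3 listed rows in 22Rv1 Brg1 against IgG, 4 in IgG against input and 2 in Sfpq against IgG. TMM in limma called 2 in 22Rv1 Brg1 against IgG. edgeR called 2 and 4 in Brg1 against IgG (22Rv1, LNCaP) and 1 and 3 in IgG against input. A minimum mean of 10 RPM, and separately a fit of only the groups compared, called 0 in each 22Rv1 comparison with IgG and 5 in LNCaP IgG against input. A fit without trended variances called 1 in 22Rv1 and 5 in LNCaP IgG against input. With paired rows summed, 4 were called in LNCaP Brg1 against IgG, and 1 and 5 in IgG against input in 22Rv1 and LNCaP. A pseudocount of 0.1 called 0 in 22Rv1 Brg1 against IgG and 1 in IgG against input, and one of 5 shifted 2 listed genes' ratio in LNCaP. Testing only rows over 3 reads in every IgG library, added after seeing the data, called 0 and 3 in Brg1 against IgG and 0 and 2 in IgG against input. Over all rows so tested, Brg1 against IgG called 2 higher and 69 lower of 9542 in 22Rv1, and 52 and 224 of 633 in LNCaP. For IgG against input the counts were 26 and 4 in 22Rv1, and 283 and 32 in LNCaP.

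Leaving out one library at a time gave 2 to 8 listed rows called in LNCaP Brg1 against input, 4 to 8 in Sfpq against input, 0 to 5 in 22Rv1 and 6 to 11 in LNCaP Brg1 against IgG, 0 to 6 in 22Rv1 and 5 to 8 in LNCaP IgG against input, 0 to 6 in Sfpq against IgG, and 0 to 1 listed genes with a shifted ratio in LNCaP. In those runs SCHLAP1 ranged from -0.22 to 0.36 and PVT1 from -0.018 to 0.094 in LNCaP Brg1 against input, SCHLAP1.primary from -0.0035 to 0.60 in Sfpq against input, DANCR from -0.56 to 0.29 in Brg1 against Sfpq, NEAT1 from -0.47 to 0.062 in 22Rv1 Brg1 against IgG, OIP5-AS1 from -0.87 to 0.11 in 22Rv1 IgG against input, and PVT1.primary from -0.60 to 0.20 in Sfpq against IgG.

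The labels do not say that a letter pairs libraries. Deviations of same-lettered libraries correlated between -0.146 and 0.0152 in 22Rv1 and between -0.354 (Brg1 and input) and 0.00528 in LNCaP, so letters were not taken as pairs, and in LNCaP the libraries of Brg1 and input varied together across letters. With the letter as a replicate block, listed rows called were 3 in LNCaP Brg1 against input, 3 in 22Rv1 Brg1 against IgG, 6 in 22Rv1 IgG against input and 6 in Sfpq against IgG, with 0 listed genes shifted in LNCaP. With the LNCaP letters crossed, added after seeing the data, 9 listed rows and 4736 higher and 5696 lower rows in all were called in Brg1 against input, against 769 and 645 with letters as given and 2883 and 3093 without a block.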
